A study of Mus musculus with 11 samples.

Results

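The genes described here are 9 genes by which macrophages hold and release lipid: Apoe, Abca1, Abcg1, Lpl, Nr1h3, Plin2, Soat1, Mylip and Fabp5. They were chosen by name, with earlier results of these data known, and all 9 are present among the 24411 genes of each library's table. The study concerns the delivery of blood-forming stem and progenitor cells to the brain for gene therapy in a mouse model of Alzheimer's disease. Lineage-negative cells were given competitively by 3 routes, into a vein (IV), into the brain ventricles (ICV) or into the lumbar cerebrospinal fluid (ITL), and myeloid cells sorted from the brain were sequenced as poly-A RNA. The series holds 11 libraries, all labelled as microglia-like cells of the brain.

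For each route there is 1 library of CD45.1 cells named µ, 1 of CD45.1 cells named TAµ and 1 of CD45.2 cells named µ, which gives a complete layout of 9 libraries. CD45.1 and CD45.2 are the 2 alleles of the leukocyte surface protein by which cells of different donors, or of donor and host, are told apart. Which of them the host carried is not in the labels, nor is the meaning of TAµ. A further ICV library of CD45.2 cells is named PBS, and 1 library named CTR has neither a route nor a CD45 allele in its labels. The labels used here give no disease genotype, age or sex for any library. No combination of route and population has a second library, so no spread below is between animals. An SD is taken over libraries of different routes or populations. The SE of a fitted difference comes from what the additive terms for population and route leave unexplained. For the SE and the p-values, the fitting program edgeR shares this spread across genes. Neither therefore rests on a gene's own libraries alone, and a gene's own spread can be wider than its SE implies.

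Apoe encodes apolipoprotein E, the main lipid carrier that glia secrete in the brain. Abca1 and Abcg1 are the transporters that load cholesterol from the cell onto such carriers, and both, like Apoe and Mylip, are textbook targets of the liver X receptors (LXR), nuclear receptors that sense oxidised sterols and bind DNA as partners of RXR. Cholesterol that is not exported is esterified by Soat1 and kept in droplets coated by Plin2. Among the brain's myeloid cells, resident microglia are known for low Apoe in the healthy brain, and macrophages derived from a graft for high Apoe.

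Levels are given as CPM, a gene's count scaled to the library total. Totals ran from 6090589 counts in the ITL CD45.2 µ library to 21282823 in the ICV CD45.2 µ library, and a gene without a count could lie as high as 0.141 to 0.493 CPM, a limit that covers counting error only. Microglial markers were abundant in all 11 libraries: the sum of 10 such genes ran from 7686 to 28553 CPM and none of the 10 was at 0. The labels do not give sex, and the libraries were mixed in it: Xist ran from 0 CPM in CTR to 6399 CPM in ICV CD45.2 µ, and the sum of 4 Y-linked genes from 0.051 to 488.5 CPM. The ribosomal RNA gene Rn45s took 6.98% to 25.1% of the counts, which lowers the CPM of every other gene, so directions were also examined without it and with TMM scaling.

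Apoe stood far above the other 8 genes. Per kilobase of exon, over the 9 libraries, the median level was 10621 CPM for Apoe, 252.9 for Abca1, 95.1 for Mylip, 46.5 for Plin2, 38.8 for Abcg1 and 28.0 for Soat1. Lpl at 6.75, Fabp5 at 5.61 and Nr1h3 at 0.467 CPM per kilobase were the low end of the list. Of 23376 genes with a known length, Apoe ranked first in 5 libraries and second in 3, those being the ICV libraries of CD45.1 TAµ and of CD45.2 µ, and PBS. Its rank was 4 in IV CD45.2 µ, 7 in ITL CD45.2 µ and 126 in CTR.

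**Figure D1:**
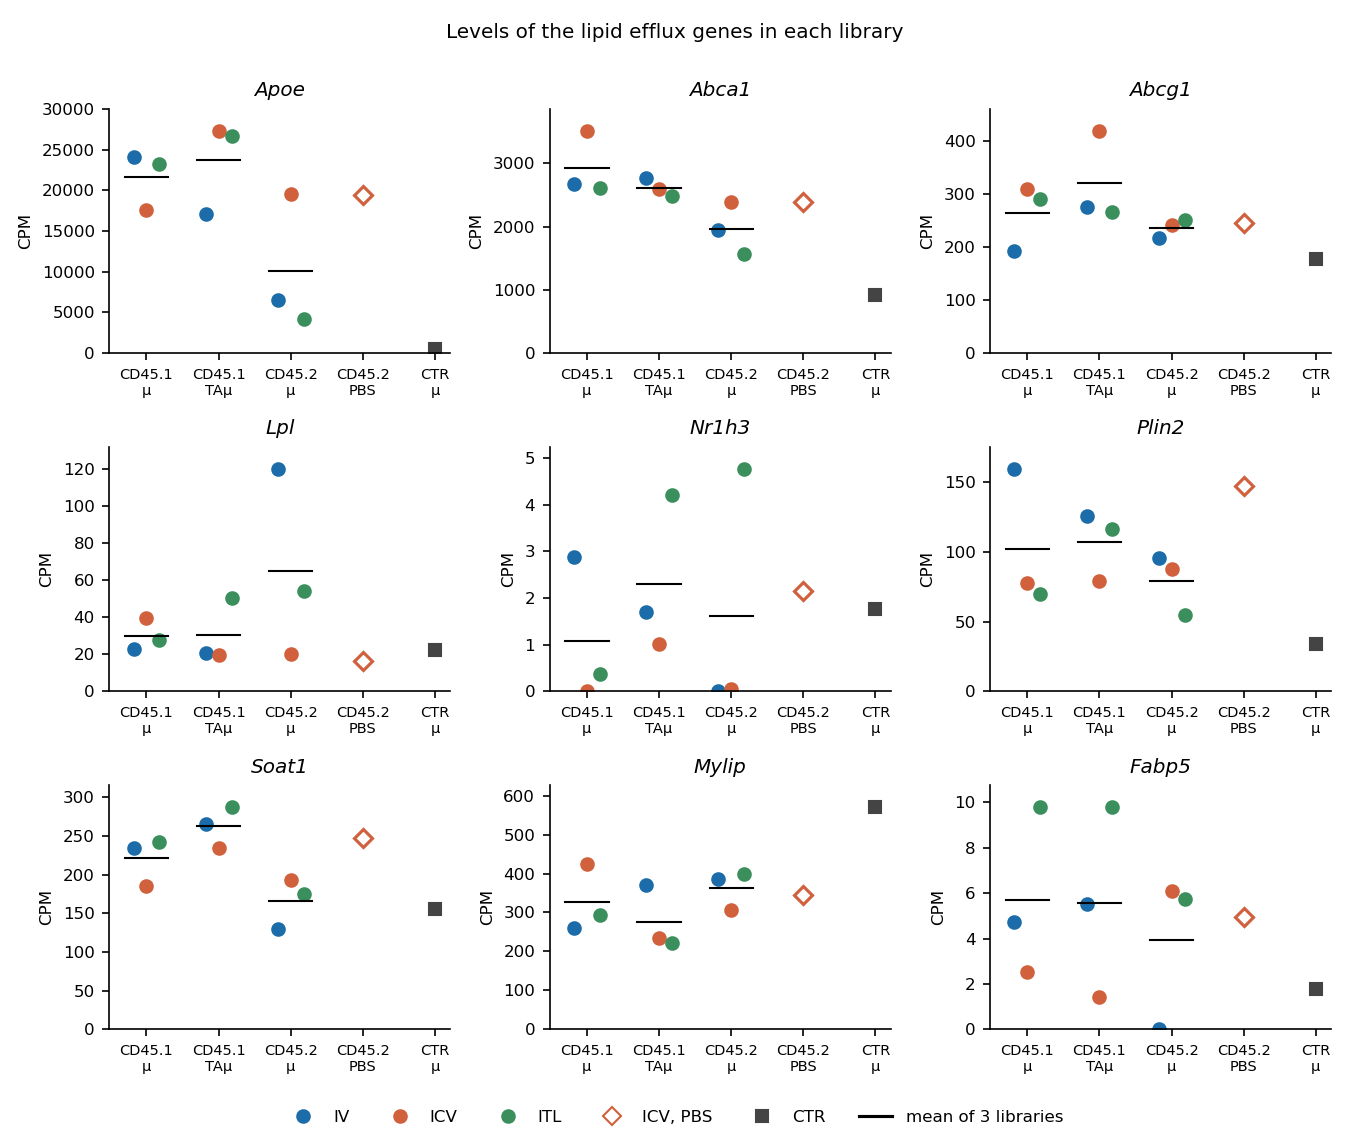
Level of each of the 9 genes in CPM of the library total (vertical axes, from 0), with 1 point per library, coloured by route, and a black line at the mean of the 3 libraries of a population. The Apoe panel shows IV and ITL CD45.2 µ at 6532 and 4194 CPM, below the other 7 libraries of the layout, and CTR at 530.2 CPM below them all.

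With each scaling, Apoe, Abca1 and Plin2 were lowest, and Mylip highest, in the CTR library. The promoters of 3 of these genes are shown, those of Apoe, Abca1 and Mylip. Each is the 250 bases upstream of a RefSeq transcription start on GRCm38.p6, 5′ to 3′ on the gene's strand, at chr7:19699189-19699438 (minus strand, the most upstream of 3 Apoe starts), chr4:53159896-53160145 (minus) and chr13:45389492-45389741 (plus). Capitals mark a match to AGGTCA repeated in the same direction with any 4 bases between the copies, the repeat bound by LXR with RXR, with at most 3 of its 12 fixed letters changed.
Apoe: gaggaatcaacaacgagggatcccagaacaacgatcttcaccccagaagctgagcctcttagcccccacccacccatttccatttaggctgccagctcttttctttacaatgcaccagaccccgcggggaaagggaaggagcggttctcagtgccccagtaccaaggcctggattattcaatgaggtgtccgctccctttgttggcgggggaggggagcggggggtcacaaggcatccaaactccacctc
Abca1: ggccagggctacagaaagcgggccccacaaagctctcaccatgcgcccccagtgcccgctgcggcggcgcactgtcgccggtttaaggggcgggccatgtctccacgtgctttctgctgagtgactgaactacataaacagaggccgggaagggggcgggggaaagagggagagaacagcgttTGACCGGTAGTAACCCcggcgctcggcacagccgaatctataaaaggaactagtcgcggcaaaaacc
Mylip: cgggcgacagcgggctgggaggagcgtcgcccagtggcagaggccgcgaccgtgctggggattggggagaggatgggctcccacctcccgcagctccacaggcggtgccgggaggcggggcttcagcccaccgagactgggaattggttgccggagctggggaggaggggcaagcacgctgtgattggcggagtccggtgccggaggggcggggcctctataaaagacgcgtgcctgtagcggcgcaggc
On both strands, the repeat was found only in the Abca1 window among the 9 windows of the 6 genes in the RefSeq table (Apoe, Abca1, Nr1h3, Plin2, Soat1 and Mylip). Its position was 67 to 52 bases before the start, and it reads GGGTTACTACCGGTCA on the opposite strand. Such a match is common, since 18.5% of all 32851 windows of 250 bases in the table held one. The E-box CACGTG was also present in the Abca1 window and in 6.02% of all windows. The letters GAGGAA, the core bound by the myeloid factor PU.1, were present in 2 of the 3 Apoe windows and in 23.3% of all windows. These matches are descriptions of letters in a window and bear on no difference between libraries.

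Among the efflux genes, Apoe was lower in 2 of the CD45.2 µ libraries. Its level was 24083 CPM in IV, 17537 in ICV and 23282 in ITL for CD45.1 µ. For CD45.1 TAµ it was 17039, 27280 and 26668 CPM in the same order of routes, and for CD45.2 µ it was 6532, 19521 and 4194 CPM. The 2 low libraries were thus the IV and ITL CD45.2 µ libraries, while ICV CD45.2 µ lay inside the range of the CD45.1 libraries, so the populations overlapped. The means were 21634 ± 3571 CPM for CD45.1 µ, 23662 ± 5744 for CD45.1 TAµ and 10082 ± 8258 for CD45.2 µ (SD over routes, n = 3 each).

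In the additive fit of population and route, Apoe differed between CD45.2 µ and CD45.1 µ by -1.32 ± 0.42 on the log2 scale (SE, edgeR quasi-likelihood adjusted p = 0.485), and was lower in 2 of 3 routes. Against CD45.1 TAµ the difference was -1.47 ± 0.41 (edgeR adjusted p = 0.194), with the lower value in CD45.2 µ in 3 of 3 routes. Both comparisons use the same 3 CD45.2 µ libraries. Their unadjusted p-values in that edgeR model were 0.00562 and 0.00221, so neither passed once adjusted over 13339 genes.

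The size and the call of the Apoe difference depend on single CD45.2 µ libraries. With single libraries left out, the edgeR differences from the CD45.1 populations µ and TAµ were smallest without ITL CD45.2 µ, at -0.78 and -0.92 respectively, and largest without ICV CD45.2 µ. Without the latter, Apoe was called in both comparisons, at -2.05 (edgeR adjusted p = 0.0258, range over all alternatives 0.0258 to 0.865) against CD45.1 µ and at -2.34 (edgeR adjusted p = 0.00508, range 0.00508 to 1) against CD45.1 TAµ. Against CD45.1 TAµ it was also called without the filter on low counts (edgeR adjusted p = 0.0457) and by limma-voom (adjusted p = 0.021). Leaving out ICV CD45.2 µ retains just the low CD45.2 µ libraries.

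The gap between the CD45.2 µ libraries was wider than counting error. Relative to ICV CD45.2 µ, the Apoe ratio was 0.335 in IV CD45.2 µ (exact 95% interval 0.332 to 0.337) and 0.215 in ITL CD45.2 µ (0.212 to 0.218), which is 2.99-fold and 4.65-fold lower. These intervals compare single libraries and cover counting error only.

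Abca1, the transporter that lipidates apolipoproteins, followed the same 2 libraries over a smaller range. It was at 2669, 3514 and 2609 CPM in IV, ICV and ITL CD45.1 µ, and at 2771, 2595 and 2482 CPM in CD45.1 TAµ. In CD45.2 µ it was at 1952, 2384 and 1570 CPM, below every CD45.1 library, with ITL lowest. The difference from CD45.1 µ was -0.53 ± 0.20 (edgeR adjusted p = 0.507) and that from CD45.1 TAµ was -0.51 ± 0.20 (edgeR adjusted p = 0.588), lower in 3 of 3 routes in each. The separation of the groups rests on the scaling: with TMM or without Rn45s the CD45.2 µ and CD45.1 µ groups overlapped, and without Rn45s the CD45.2 µ and CD45.1 TAµ groups did too.

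Abcg1 exports cholesterol to mature lipoprotein particles. Its fitted differences ran from -0.50 to 0.41 between populations and from -0.31 to 0.61 between routes. Each had an SE of 0.23, so the 2 factors cannot be ranked by size. Its CD45.1 µ levels were 192.6, 309.5 and 290.9 CPM in IV, ICV and ITL, its CD45.1 TAµ levels 275.8, 418.3 and 265.2, and its CD45.2 µ levels 215.8, 241.5 and 251.2 CPM. Each CD45.2 µ value was below each CD45.1 TAµ value, at -0.50 ± 0.23 (edgeR adjusted p = 0.713), although with TMM or without Rn45s these groups overlapped. ICV exceeded IV in 3 of 3 populations, by 0.61 ± 0.23 (edgeR adjusted p = 0.466). On library totals the ICV and IV groups overlapped, and with TMM or without Rn45s they did not.

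Of the LXR arm, the receptor gene Nr1h3 was barely detected. It had at most 49 counts in any library and ran from 0 CPM in ICV CD45.1 µ and IV CD45.2 µ to 4.76 CPM in ITL CD45.2 µ. Its fitted differences had standard errors of 1.46 to 2.18 on the log2 scale, and none passed the test. The sister receptor Nr1h2, expressed in most cell types, was at a median of 69.0 CPM over the 9 libraries.

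Mylip encodes the ubiquitin ligase that removes the LDL receptor from the cell surface. It was at 259.7, 425.1 and 292.3 CPM in IV, ICV and ITL CD45.1 µ, at 371.4, 235.2 and 222.8 in CD45.1 TAµ, and at 386.0, 307.4 and 398.5 in CD45.2 µ. High and low libraries were spread over routes, and the populations overlapped. CD45.2 µ exceeded CD45.1 TAµ in 3 of 3 routes, by 0.33 ± 0.24 (edgeR adjusted p = 0.89). Mylip ran against Apoe: over the 9 libraries Spearman's rho was -0.88 and Pearson's r was -0.71, the most negative rho of any pair of the 9 genes. For the LXR targets Abca1 and Abcg1, rho with Mylip was 0.0 and -0.03, and rho with Apoe was 0.28 and 0.3. Pearson's r for the same genes was -0.15 and -0.18 with Mylip, and 0.78 and 0.34 with Apoe. These values are descriptions over points that share libraries and depth.

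Of the storage genes, on library totals, Soat1 separated CD45.2 µ from CD45.1 TAµ and Plin2 separated ICV from IV, both lower. Of all genes, 6.29% and 7.01% did so in these directions. Soat1, which esterifies cholesterol, was at 235.0, 185.6 and 242.2 CPM in IV, ICV and ITL CD45.1 µ, at 265.6, 234.5 and 286.9 in CD45.1 TAµ, and at 130.3, 192.6 and 174.7 in CD45.2 µ. All 3 CD45.2 µ values were below all 3 CD45.1 TAµ values, under each of the 3 scalings, by -0.73 ± 0.26 (edgeR adjusted p = 0.466). Soat1 in CD45.1 TAµ exceeded CD45.1 µ in 3 of 3 routes by 0.36 ± 0.25 (edgeR adjusted p = 0.876), and these groups overlapped on library totals but not with TMM or without Rn45s.

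Plin2, the droplet coat protein, was at 159.3, 77.8 and 69.6 CPM in IV, ICV and ITL CD45.1 µ, at 125.8, 79.3 and 116.6 in CD45.1 TAµ, and at 95.5, 87.9 and 54.7 in CD45.2 µ. On library totals the IV library was the highest of its population in all 3, and the ICV group lay wholly below the IV group. The fitted difference of ICV from IV was -0.48 ± 0.32 (edgeR adjusted p = 0.648), and that of ITL from IV was -0.63 ± 0.33 (edgeR adjusted p = 0.915). With TMM or without Rn45s the ICV and IV groups overlapped, and IV was the highest of its population in CD45.1 µ alone. Without IV CD45.1 µ the 2 differences from IV were -0.099 and -0.22.

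The fatty acid genes were low and uneven. Lpl, the lipase that frees fatty acids from lipoproteins, was at 22.6, 39.4 and 27.8 CPM in IV, ICV and ITL CD45.1 µ, at 20.4, 19.6 and 50.5 in CD45.1 TAµ, and at 120.0, 20.2 and 54.2 in CD45.2 µ. IV CD45.2 µ stood highest, 5.95-fold above ICV CD45.2 µ (exact 95% interval 5.35 to 6.64), and ITL CD45.2 µ was 2.69-fold above it (2.32 to 3.11). These are the same 2 libraries in which Apoe was low. The fitted difference of CD45.2 µ from CD45.1 µ was 1.00 ± 0.53 (edgeR adjusted p = 0.593), and without IV CD45.2 µ it was -0.0073.

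Fabp5, a fatty acid carrier known to have near-identical pseudogene copies, is uncertain where reads fit several copies. It was at 4.75, 2.51 and 9.77 CPM in IV, ICV and ITL CD45.1 µ, at 5.54, 1.42 and 9.78 in CD45.1 TAµ, and at 0, 6.11 and 5.75 in CD45.2 µ. The ITL values all lay above the IV values under each of the 3 scalings, by 1.33 ± 1.00 (edgeR adjusted p = 0.92). Its highest count in any library was 130.

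**Figure D2:**
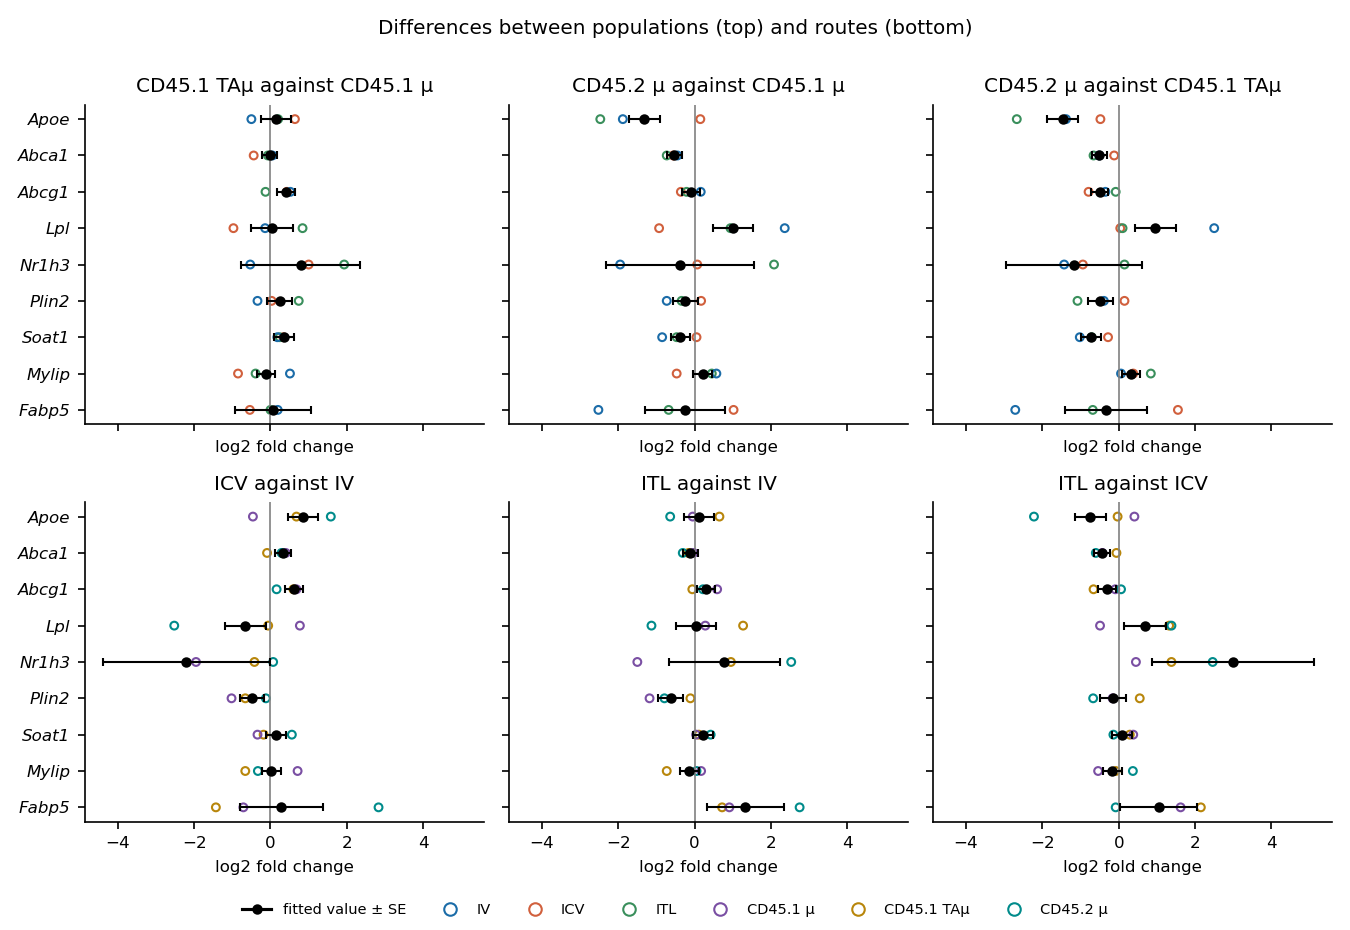
Fitted log2 fold change (horizontal axes) of each gene for 3 comparisons of populations and 3 of routes; filled points with bars are edgeR estimates ± SE from 9 libraries, and open circles are the log2(CPM + 1) differences within each route (top) or population (bottom). For Apoe in CD45.2 µ against CD45.1 µ the open circles run from -2.47 in ITL to 0.15 in ICV.

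None of the 9 genes passed an adjusted p of 0.05 in any of the 6 comparisons by edgeR, and the background rate was itself low. Of 13339 genes tested, 0.075% were called between the CD45.1 populations, TAµ and µ, 0.03% between CD45.2 µ and CD45.1 µ, and 0.345% between CD45.2 µ and CD45.1 TAµ. For ICV against IV, ITL against IV and ITL against ICV the shares were 0.0%, 0.217% and 0.0%. The number of the 9 genes with an unadjusted p under 0.05 was 0, 2, 4, 1, 0 and 1 in that order of comparisons, where 5.36%, 8.79%, 6.75%, 9.22%, 5.35% and 3.79% of all genes reached it. DESeq2 called 0 of the 9 in all 6, and limma-voom called Apoe alone, in CD45.2 µ against CD45.1 TAµ.

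On library totals, 0 to 3 of the 9 genes, depending on the comparison, had groups that did not overlap. Between CD45.2 µ and CD45.1 µ this held for 1 of 9 genes (Abca1, lower), beside 5.64% of all genes in that direction. In CD45.2 µ against CD45.1 TAµ it held for 3 of 9 (Abca1, Abcg1 and Soat1, lower), beside 6.29%. In ICV against IV it held for Plin2 (lower, beside 7.01%) and in ITL against IV for Fabp5 (higher, beside 4.74%). With TMM and without Rn45s these counts were 0 and 0 for CD45.2 µ and CD45.1 µ, and 2 and 1 for CD45.2 µ and CD45.1 TAµ. For ICV and IV, Plin2 no longer separated and Abcg1 was higher in ICV under both, as was Abca1 without Rn45s. Between the CD45.1 populations, Soat1 was higher in TAµ than in µ under both. The share of all genes was not computed under these scalings, so these counts have no background beside them. The median difference of the 9 genes was -0.50 in CD45.2 µ against CD45.1 TAµ, where that of all genes was -0.098. Between CD45.2 µ and CD45.1 µ it was -0.26 beside -0.0074, and in the other 4 comparisons it lay between -0.15 and 0.15. The same direction in all 3 pairs of libraries was found for 1, 1, 6, 2, 4 and 2 of the 9 genes in the order of comparisons above, beside 28.5%, 24.8%, 28.0%, 22.5%, 28.0% and 25.5% of all genes.

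The marker lists were chosen with earlier results of these data known. Markers of graft-derived brain macrophages were low in the 2 libraries of the layout where Apoe and Abca1 were lowest. The sum of 8 such markers, among them Ms4a7, Axl and Clec12a, was 887.4 CPM in IV CD45.2 µ and 623.6 in ITL CD45.2 µ, against 1581 to 2077 CPM in the other 7 libraries of the layout. The sum of 8 markers of border-associated macrophages, the macrophages of the meninges and perivascular spaces, was 622.9 and 638.9 CPM in those 2 libraries against 1744 to 2724 CPM in the other 7, and its markers Cbr2 and Folr2 were at 0 in IV CD45.2 µ. No marker of graft-derived macrophages was at 0 in any library.

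Other signals moved with the same 2 libraries. The microglial marker sum was 17666 and 20498 CPM in IV and ITL CD45.2 µ, 18545 CPM in ITL CD45.1 µ and 7984 to 12204 CPM in the other 6. IV CD45.2 µ also had the fewest genes detected, 10477 against 11456 to 15492 in the other 10 libraries, and 6 of 8 monocyte and 5 of 9 neutrophil markers were at 0 in it. The next fewest, 11456, were in ICV CD45.1 µ. The sum of 10 astrocyte markers was 648.5 and 548.9 CPM in IV and ITL CD45.2 µ and 64.7 to 294.9 CPM in the other 7. Astrocytes also make Apoe, and their part in its level was not tested. The sum of 10 endothelial and mural markers was 417.0 and 314.7 CPM in those 2 libraries. It was 413.3 CPM in ICV CD45.1 TAµ, where Apoe was highest, and at most 137.6 CPM in the rest of the layout. The sum of 7 choroid plexus markers was 1419 CPM in ICV CD45.1 µ and at most 155.3 CPM in the rest of the layout. In ICV CD45.1 µ, Abca1 and Mylip were the highest of the layout. Xist was at 4028 to 6399 CPM in the CD45.2 µ libraries and at 12.3 to 428.6 in CD45.1 TAµ. In IV, ICV and ITL CD45.1 µ it was at 295.3, 6291 and 1369 CPM. The sex signal thus differed between populations and also within them. The Y-linked sum was 45.8 CPM in IV CD45.2 µ, beside 1.22 in ICV and 3.61 in ITL CD45.2 µ. The part of these marker and sex differences in the results was not tested, and in sorted bulk RNA fewer cells of a type and less RNA per cell cannot be told apart.

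Over the 9 libraries, the log2 level of Apoe and the log2 sum of the graft-derived macrophage markers had a Pearson r of 0.92 but a Spearman rho of 0.43. Without IV and ITL CD45.2 µ, the 2 libraries farthest from the median of that sum, r was -0.27 over 7 libraries, so the relation rests on those 2. For Abca1, r was 0.90 over 9 libraries and 0.41 over 7, and rho was 0.70 over 9. The relation was not particular to that sum. With the border-associated macrophage sum over the 9 libraries, r was 0.91 and rho 0.45 for Apoe, and r was 0.91 and rho 0.88 for Abca1. These are descriptions over libraries that share routes and populations.

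**Figure D3:**
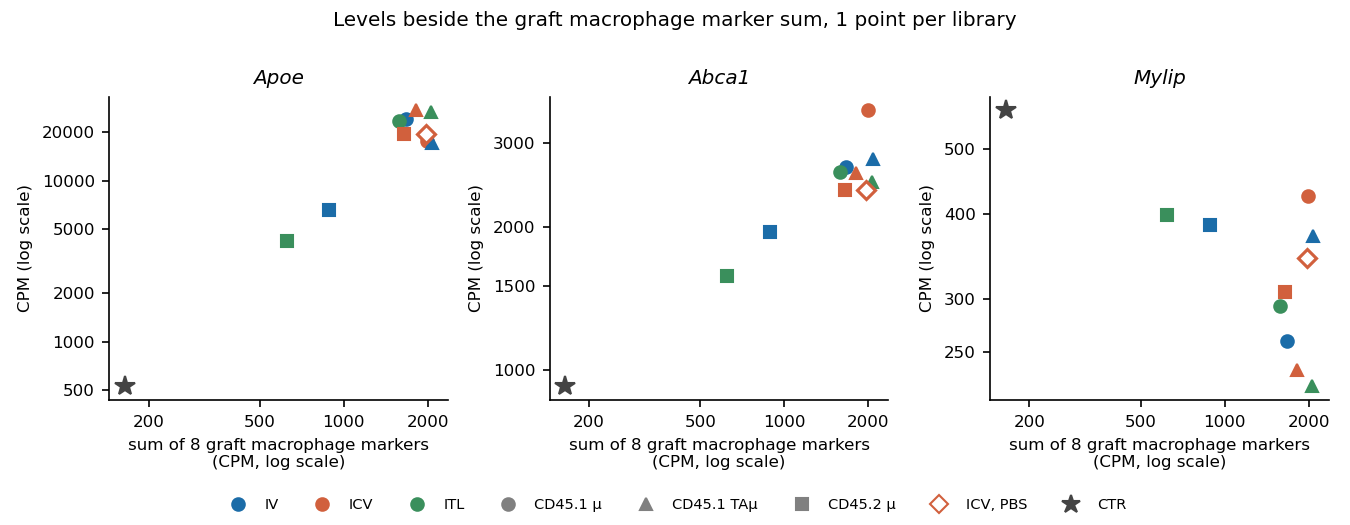
Level of Apoe, Abca1 and Mylip (vertical axes, CPM, log scale) beside the summed CPM of 8 graft-derived macrophage markers (horizontal axes, log scale), 1 point per library, colour for route and shape for population. CTR sits at 164.3 CPM of the marker sum and IV and ITL CD45.2 µ at 887.4 and 623.6, apart from a cluster of the other 8 libraries.

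The CTR library differed from the layout most in Apoe. It had 530.2 CPM of Apoe, while the lowest of the 9 libraries had 7.91 times and their mean 34.8 times that level. Apoe was the 1 gene of the 9 more than 1 log2 unit outside the range of the layout, and it lay 2.98 below. Of 14841 genes, 1.02% lay more than 1 log2 unit below the range and 1.29% in either direction. There is 1 CTR library, so no test was made.

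By any margin, 4 of the 9 genes were lower in CTR than in all 9 libraries, beside 6.27% of all genes, and 1 was higher, beside 5.69%. Abca1 was at 922.9 CPM in CTR and at 1570 or more in the layout, a gap of 1.70-fold. Plin2 was at 34.2 CPM, 1.60-fold under the lowest library, and Abcg1 at 177.6 CPM, 1.08-fold under it, an order that TMM scaling turned round. Mylip was at 569.6 CPM, 1.34-fold above the highest library, under each of the 3 scalings. Apoe, Abca1 and Plin2 were likewise lowest in CTR under each scaling.

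Soat1 at 156.1, Lpl at 22.0, Nr1h3 at 1.76 and Fabp5 at 1.76 CPM in CTR lay inside the range of the 9 libraries. The median difference of CTR from the mean of the layout was -0.62 on the log2 scale for the 9 genes and -0.055 for all genes. Without ITL CD45.2 µ in the layout, Abca1 and Plin2 also passed the 1 log2 unit margin, which gave 3 genes. In CTR the microglial marker sum was the highest of all libraries, at 28553 CPM, the graft-derived macrophage sum the lowest, at 164.3 CPM, and the border-associated sum the lowest, at 265.4 CPM. The part of these sums in the CTR differences was not tested.

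The PBS library lay close to ICV CD45.2 µ in the efflux genes. Apoe was at 19427 CPM in PBS and 19521 in ICV CD45.2 µ, a ratio of 0.995 (exact 95% interval 0.991 to 1.0). Abca1 had a ratio of 1.00 (0.987 to 1.01) and Abcg1 of 1.01 (0.974 to 1.05). Larger ratios were found in the storage genes, at 1.68 for Plin2 (1.58 to 1.78) and 1.29 for Soat1 (1.23 to 1.34).

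Mylip had a ratio of 1.12 (1.08 to 1.16), Lpl of 0.822 (0.71 to 0.952) and Fabp5 of 0.81 (0.616 to 1.06). Nr1h3 was the 1 gene of the 9 past 2-fold, with 42 counts in PBS and 1 in ICV CD45.2 µ (ratio 45.6, interval 7.75 to 1843). Past 2-fold were 22.7% of 14027 genes in either direction and 11.4% as higher in PBS, so a single low-count gene is not set apart by this. Of the 8 genes with at least 100 counts over both libraries, which leaves out Nr1h3, 0 passed 2-fold, beside 9.6% of all genes at that depth.

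**Figure D4:**
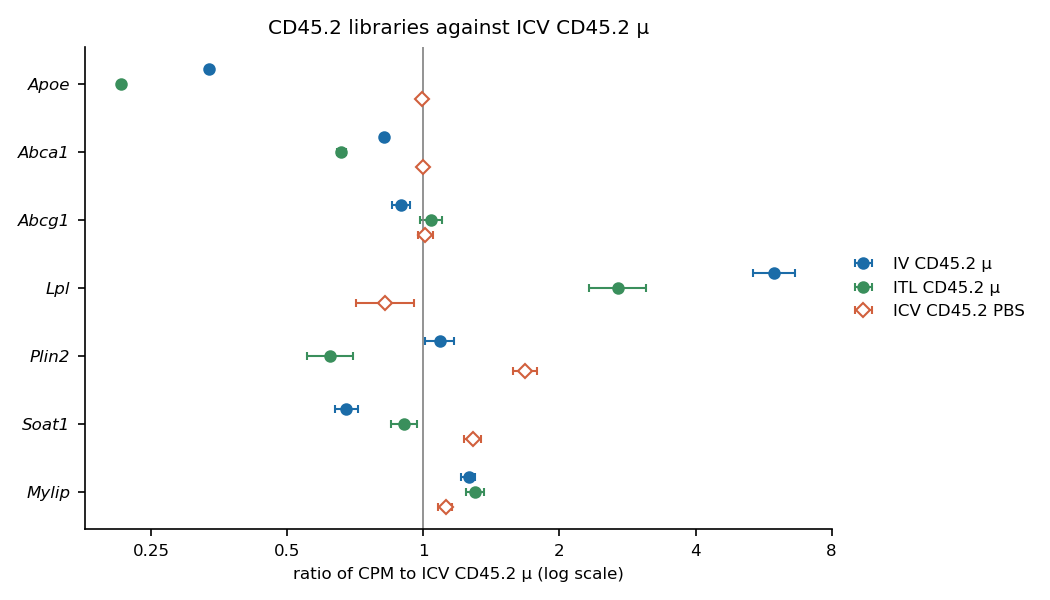
Ratio of CPM to the ICV CD45.2 µ library (horizontal axis, log scale) for 7 of the genes in IV CD45.2 µ, ITL CD45.2 µ and the PBS library, with exact 95% counting intervals as bars. Nr1h3 and Fabp5 are left out for their low counts. For Apoe the PBS ratio is 0.995 while the IV and ITL ratios are 0.335 and 0.215.

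The wider lipid pathway was read from 5 lists of 61 genes. In the 6 fits, edgeR called 1 of them, Cd36, the scavenger receptor for fatty acids and oxidised lipoproteins. Cd36 was at 186.7, 94.2 and 156.4 CPM in IV, ICV and ITL CD45.1 TAµ, and at 55.2, 47.6 and 37.4 in CD45.2 µ. All 3 CD45.2 µ values were lower, and the difference was -1.64 ± 0.31 (edgeR adjusted p = 0.0232). The call was lost on leaving out any of 6 single libraries (all but IV CD45.1 µ, ICV CD45.1 TAµ and ICV CD45.2 µ), with adjusted p up to 0.405 and the difference between -2.00 and -1.42.

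In that comparison of CD45.2 µ with CD45.1 TAµ, 0 of 14 lipoprotein uptake and lysosomal genes rose and 1 fell, with a list median of -0.36 beside -0.098 for all genes. Lrp1, an endocytic receptor for apolipoprotein E, ran the other way at 0.83 ± 0.25 (edgeR adjusted p = 0.273), with CD45.2 µ at 2872 ± 793 CPM, CD45.1 TAµ at 1470 ± 212 CPM (SD, n = 3), and the higher value in CD45.2 µ in 3 of 3 routes. In the list of LXR receptors, partners and other targets 0 of 10 were called either way (median 0.099), with Lpcat3, an LXR target that remodels phospholipids, at 1.37 ± 0.35 (edgeR adjusted p = 0.142). Of 12 tested genes for sterol esters and droplets 0 were called (median 0.0081), with Nceh1, a cholesterol ester hydrolase, at -1.18 ± 0.35 (edgeR adjusted p = 0.249). Of 7 tested efflux and lipoprotein remodelling genes (median -0.023) and 12 tested fatty acid genes (median -0.14), 0 were called by edgeR. At an unadjusted p under 0.05 the 5 lists had 3, 2, 1, 1 and 1 genes in the order given here.

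In the other 5 comparisons 0 genes of the 5 lists were called by edgeR. In CD45.1 TAµ against CD45.1 µ the efflux and remodelling list had a median of 0.90 over 7 tested genes beside 0.057 for all genes, with 2 of 7 at an unadjusted p under 0.05. These 2 ran in opposite directions: Pltp, which transfers phospholipid between lipoproteins, differed by 1.40 ± 0.38 (edgeR adjusted p = 0.529) and the transporter gene Abca9 by -0.45 ± 0.20 (edgeR adjusted p = 0.874). Of the 7 tested, Apoc1, Apoc2 and Lcat had at most 34, 13 and 9 counts in any CD45.1 library, so the list's median leans on genes near the floor.

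Beside CTR, the uptake list had the most genes outside the layout: 7 of 14 were lower in CTR than in all 9 libraries and 3 passed the 1 log2 unit margin, beside 6.27% and 1.02% of all genes. The 3 were the scavenger receptors Msr1, at 8.80 CPM against 30.9 or more, and Cd36, at 15.8 against 37.4 or more, and the lipoprotein receptor Lrp8, at 1.84 against 4.84 or more. The list's median was -0.87, beside -0.055 for all genes. Of the efflux and remodelling list 1 of 9 passed, Pltp, at 7.65 CPM in CTR and 19.2 or more in the layout. In the LXR, droplet and fatty acid lists 0 of 10, 0 of 12 and 0 of 13 passed, with medians of -0.34, -0.12 and -0.54.

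In PBS against ICV CD45.2 µ, 0 of 10 genes of the LXR list were past 2-fold, and the other 4 lists had 5 higher and 4 lower of 44. Over the 5 lists this is 9 of 54 genes, no larger a share than the 22.7% of all genes past 2-fold. Higher were Apoc1, Hilpda, Olr1, Fabp4 and Fabp7, and lower were Apoc2, Plin4, Vldlr and Angptl4. Of these 9, Hilpda, which inhibits fat breakdown in droplets, had a ratio of 2.48 (exact 95% interval 1.95 to 3.19), and Olr1, a receptor for oxidised LDL, had 2.75 (2.09 to 3.64). The other 7 had at most 70 counts in either library. Cd36 lay just inside the margin at 1.99 (1.84 to 2.15).

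The genes whose pattern was nearest to each member over the 9 libraries were sought among 4632 well-expressed genes by Pearson's r. For Apoe they were Pf4 (r = 0.981), Bst2 (0.977) and Axl (0.974). Pf4 is in the border-associated and Axl in the graft-derived macrophage marker list, so this likeness partly repeats that of the marker sums. Over all 11 libraries the values for Pf4, Bst2 and Axl were 0.901, 0.970 and 0.989. For Abca1 they were Cmah (0.963), Pgap1 (0.957) and Myo5a (0.946), and for Mylip Nol4l (0.963), Hpgds (0.961) and Arid1a (0.96).

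For Soat1 the nearest gene was Ctse (0.916), for Plin2 Tmem164 (0.918), for Abcg1 Emc10 (0.917), for Lpl Sec13 (0.902), for Fabp5 Scfd1 (0.956) and for Nr1h3 Cct6a (0.889). Over 11 libraries the value for Ctse was 0.874, for Tmem164 0.925, for Emc10 0.683 and for Sec13 0.733. With 9 points drawn from so many genes these values order the genes and carry no test.

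Within the layout, Apoe and Lpl were the most variable of the well-detected members. The SD of log2(CPM + 1) over the 9 libraries was 0.954 for Apoe and 0.866 for Lpl, beside medians of 0.776 and 0.522 over genes of like level (mean within 1 log2 unit). It was 0.467 for Plin2 beside 0.402, and 0.352 for Soat1, 0.346 for Mylip, 0.327 for Abca1 and 0.32 for Abcg1 beside 0.337 to 0.353. From the lowest to the highest library Apoe spanned 6.50-fold, Lpl 6.14-fold, Plin2 2.91-fold, Abca1 2.24-fold, Soat1 2.20-fold, Abcg1 2.17-fold and Mylip 1.91-fold.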

How the data were processed

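The 11 poly-A RNA libraries of myeloid cells sorted from mouse brain were read from gene count tables that the authors deposited; STAR and the build mm39 (GRCm39) are named per the submitters' processing notes, while no gene annotation or strand setting was found in those notes or in the labels. Each table pairs a gene symbol with 1 whole-number count and has no row for unassigned reads. Whether counting used strand was not found, so reads of a gene and of an antisense partner may not be told apart.

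Levels are CPM (counts scaled to the library total). The 9 libraries of the layout of 3 routes by 3 populations were fitted with edgeR 4.0.16 (quasi-likelihood, TMM factors 0.876 to 1.09, additive population and route, 4 residual degrees of freedom, biological coefficient of variation 0.842) after its filter (minimum count 10, total 15), with Benjamini-Hochberg adjustment over 13339 genes at 0.05. The p-values measure spread between single libraries, shared across genes by edgeR, and not spread between animals. edgeR's older quasi-likelihood dispersion method was run first and then replaced by its newer one with both results seen; 0 of the 9 genes were called by either. The script was tested on simulated data. CTR was placed beside the 9 libraries on log2(CPM + 1), and PBS against ICV CD45.2 µ by the ratio of counts with exact 95% intervals, without a test. Alternatives were DESeq2 1.42.0 (test, and size factors), limma-voom 3.58.1 with quality weights, other filters, no Rn45s, no block, all 11 libraries and each library left out. In R 4.3.3.

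The 9 genes, the related and marker lists and the rule for genes named (the called ones, then the largest fitted differences, and the 3 nearest patterns) were chosen with earlier results of these data known. Cd36's alternatives were added after its call was seen. Exon lengths come from GENCODE vM21 (GRCm38) and promoters from RefSeq (GRCm38.p6), matched by symbol, with no coordinates carried over to mm39; Abcg1, Lpl and Fabp5 had no promoter entry.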

Additional observations from a re-analysis of the deposited data

Results flagged for a closer look

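The ITL to IV difference in Lpl ran in opposite directions in 2 populations. In CD45.1 TAµ it was 1.27 on the log2(CPM + 1) scale (50.5 CPM in ITL and 20.4 in IV), and in CD45.2 µ it was -1.13 (54.2 CPM in ITL and 120.0 in IV). In CD45.1 µ it was 0.28. With 1 library per combination the difference between populations was not tested.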

How the results depend on the processing

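Of 54 fold changes (9 genes in 6 comparisons), 26 kept their sign in every alternative run for them and with each of the 9 libraries left out, and 28 changed sign at least once; the cause was not tested. There were 10 alternatives, of which the filter of 10 CPM could not be run for Nr1h3 and Fabp5. In CD45.1 TAµ against CD45.1 µ, leaving out single libraries gave -0.31 to 0.57 for Apoe, -0.12 to 0.099 for Abca1, -0.54 to 0.72 for Lpl, -0.71 to 4.20 for Nr1h3, -0.10 to 0.64 for Plin2, -0.33 to 0.11 for Mylip and -0.35 to 0.55 for Fabp5. Between CD45.2 µ and CD45.1 µ it gave -0.18 to 0.052 for Abcg1, -0.0073 to 1.63 for Lpl, -4.59 to 3.0 for Nr1h3, -0.62 to 0.16 for Plin2 and -1.88 to 0.50 for Fabp5. In CD45.2 µ against CD45.1 TAµ it gave -0.043 to 1.52 for Lpl, -5.39 to 0.087 for Nr1h3 and -1.96 to 0.43 for Fabp5. In ICV against IV it gave -1.34 to 0.36 for Lpl, -0.13 to 0.38 for Soat1, -0.20 to 0.27 for Mylip and -1.13 to 0.89 for Fabp5. In ITL against IV it gave -0.24 to 0.61 for Apoe, -0.19 to 0.017 for Abca1, -0.45 to 1.08 for Lpl, -0.040 to 2.44 for Nr1h3 and -0.29 to 0.13 for Mylip. In ITL against ICV it gave -1.29 to 0.028 for Apoe, -0.53 to 0.22 for Plin2, -0.15 to 0.40 for Soat1 and -0.30 to 0.072 for Mylip.

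Without Rn45s, Abca1 in CD45.1 TAµ against CD45.1 µ was 0.0052. With limma-voom it was 0.016, Nr1h3 in CD45.2 µ against CD45.1 µ was 1.43, and in ICV against IV Mylip was -0.18 and Fabp5 -0.059. Without the block, Lpl in ITL against IV was -0.23. With 2 libraries left out together (CD45.2 µ by IV, CD45.1 µ by ICV), the values in CD45.1 TAµ against CD45.1 µ were -0.32 for Apoe, 0.14 for Mylip and -0.11 for Fabp5. Under that setting CD45.2 µ against CD45.1 µ gave 0.72 for Nr1h3 and 0.17 for Fabp5, CD45.2 µ against CD45.1 TAµ gave 0.29 for Fabp5, ICV against IV gave -0.27 for Mylip and -0.18 for Fabp5, and ITL against ICV gave -0.072 for Soat1 and 0.10 for Mylip.

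The count of the 9 genes called in CD45.2 µ against CD45.1 TAµ, 0 by edgeR, was 1 without the low-count filter and 1 with limma-voom. Leaving out single libraries gave 0 to 1 in both CD45.2 µ comparisons and 1 to 3 beside CTR, and a minimum of 100 counts gave 0 for PBS. Over all genes edgeR called 10, 4, 46, 0, 29 and 0 in the 6 comparisons, its older dispersion method 3, 0, 22, 0, 10 and 0, limma-voom 17, 0, 131, 0, 107 and 0, and DESeq2 217, 277, 193, 147, 150 and 32. The fit matches libraries by route and by population. No paired analysis was possible by animal or replicate, because the labels carry no such numbers. At these depths Nr1h3 and Fabp5 are near the limit of detection.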
